A study of Mus musculus with 19 samples.

Results

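The genes described here are 28 genes of inhibitory signalling in the mouse hippocampus. They are 9 subunits of GABA-A receptors, 2 subunits of GABA-B receptors, 6 genes for making, packaging, taking up or breaking down GABA, 2 genes of the inhibitory postsynapse, 6 peptides and proteins that mark interneurons and 3 transcription factors of interneurons. They were listed by symbol, by a rule that uses no measured value, though with earlier results of these arrays known, from the 19938 genes that the array annotation names, and all 28 had a probe set with their symbol alone. Gabrb2 was the only one of them with several such probe sets, and, as for every gene, the brightest of them on average was used. The study measured hippocampal RNA on 19 Affymetrix arrays, in 4 groups that combine a genotype with a diet. The transgenic mice, called APP-PS1, are labelled APPSwe-PS1deltaE9 and are a model of amyloid plaques, and the others are wild-type littermates. Both genotypes are on the C57BL/6J strain and 6 months old, and both ate their chow from 3 to 6 months of age. The chow held either ibuprofen, a cyclooxygenase inhibitor, at 375 ppm, or no additive (control chow). There are 4 arrays of wild-type mice on control chow, 5 of wild-type mice on ibuprofen chow, 5 of APP-PS1 mice on the first diet and 5 on the second.

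GABA is the main inhibitory transmitter of the hippocampus. It is made from glutamate by the decarboxylases Gad1 and Gad2, loaded into vesicles by Slc32a1, and acts on GABA-A receptors, which are chloride channels of several subunits, and on GABA-B receptors, which couple to G proteins. It comes from interneurons, a varied minority of the neurons that can be told apart by the peptides and calcium-binding proteins they contain, while most receptor subunits are made by the pyramidal and granule cells that receive the inhibition.

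The deposited values are log2 intensities per probe set. Differences below are on that log2 scale with the standard error (SE) of 1 limma fit across all genes, and adjusted p-values are those of limma after Benjamini-Hochberg adjustment over the 19938 genes. The labels do not say more of the replicates than that they are separate samples, so p-values measure the spread between these samples. The array medians lay between 8.06 and 8.14. In 3 arrays the median correlation with the other arrays was under 0.99, namely replicate 1 of the APP-PS1 mice on control chow (0.9895) and replicates 1 (0.987) and 5 (0.974) of the wild-type mice on ibuprofen chow, and values without them are given beside many of the results below. App, the gene of the transgene's precursor protein, was higher in APP-PS1 arrays by 0.40 ± 0.04 (SE) on control chow and 0.34 ± 0.03 (SE) on ibuprofen chow, with no overlap of the genotypes on either diet. Slc17a7, which marks glutamatergic neurons of the hippocampus, had group means of 13.23 to 13.31, and Prox1, a marker of dentate granule cells, 10.28 to 10.74.

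None of the 28 genes passed the adjusted threshold of 0.05 in any of the 7 limma comparisons. For genotype on control chow, 4 of the 28 had an unadjusted p under 0.05, with Gabrb1 and Gad2 higher in APP-PS1 and Sst and Vip lower, against 5.87% of all genes. Those higher were 2 of 28 (7.14%) against 4.80% of all genes and those lower 2 of 28 against 1.07%, and 0.01003% of all genes passed the adjusted threshold there. The groups overlapped in all 28 genes, and in all but 3.84% of all genes. For genotype on ibuprofen chow, 9 of the 28 had an unadjusted p under 0.05 (32.1%), against 24.5% of all genes, and 0.271% of all genes passed the adjusted threshold. In that comparison Cck, Gabbr2, Gabra5, Gabrd, Gphn, Nlgn2, Pvalb and Sst were lower in APP-PS1, 28.6% of the 28 against 18.2% of all genes, and Gabrb2 was higher, 3.57% against 6.25%. That count of 9 was 4 without the 3 arrays that stand apart (Cck, Gabbr2, Gabra5 and Gabrd, against 9.96% of all genes), 5 without replicate 5 of the wild-type mice on that diet alone (against 14.8%), and 3 after each array was centred on its median (Cck, Gabrd and Sst, against 21.2%). For ibuprofen in APP-PS1 mice the count was 2 of 28 (7.14%), Cck and Pvalb, both lower on ibuprofen, against 6.48% of all genes in either direction and 4.66% lower, and no gene passed the adjusted threshold (0%). For ibuprofen in wild-type mice it was 3 of 28 (10.7%), Gabrb1, Gad2 and Gphn, all higher on ibuprofen, against 11.0% of all genes in either direction and 9.08% higher, and again no gene passed the adjusted threshold (0%). The shares of the 28 genes thus lay near those of all genes in both ibuprofen comparisons. Without the 3 arrays the counts were 5 in APP-PS1 mice (Cck, Gabra5, Gabrd, Pvalb and Reln, against 9.06% of all genes), 2 in wild-type mice (Dlx6 and Gabrb1, against 3.47%) and, for genotype on control chow, 7 (Gabra4, Gabrb1, Gabrb2, Nlgn2, Reln, Sst and Vip, against 8.27%). The count of 2 in APP-PS1 mice was also 4 without replicate 1 of those on control chow (against 4.03% of all genes). It was 4 without replicate 5 of the wild-type mice on ibuprofen chow too (against 10.4%). Without replicates 2 and 5 of the APP-PS1 mice on ibuprofen chow it was 5 and 1, for which the share of all genes is not given.

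The interaction, which is the ibuprofen difference in APP-PS1 minus that in wild-type mice, gave 4 of 28 at an unadjusted p under 0.05, all negative, against 20.5% of all genes in either direction and 16.0% negative, with 0% of all genes past the adjusted threshold. These were Cck with -0.14 ± 0.05 (SE, adjusted p = 0.208), Gphn with -0.18 ± 0.07, Gabrb1 with -0.20 ± 0.09 and Gabrg3 with -0.20 ± 0.09. Without the 3 arrays they were -0.09 ± 0.05, -0.08 ± 0.06, -0.14 ± 0.09 and -0.13 ± 0.09, none at an unadjusted p under 0.05, and Gabra4, Gabra5 and Reln were there instead, with -0.14 ± 0.06, -0.17 ± 0.07 and 0.20 ± 0.08 (9.21% of all genes were). The count of 4 was 2 without replicate 1 of the APP-PS1 mice on control chow (against 13.8% of all genes) or replicate 4 of the wild-type mice on it. It was 0 after array centring (against 16.4%) or quantile normalization (against 11.8%). It rose to 5 without replicate 3 of the wild-type mice on control chow (against 15.9% of all genes). With the mean of striatal markers as a covariate it was 8. The share of all genes is not given for that covariate, nor for replicate 4 of the wild-type mice on control chow. Averaged over both diets, the genotype comparison gave 5 of 28, Cck, Gabrd, Nlgn2, Sst and Vip, all lower in APP-PS1 (17.9%), against 7.70% of all genes in either direction and 5.36% lower, and 0.0251% of all genes passed the adjusted threshold. Averaged over both genotypes, the ibuprofen comparison gave 1 of 28, Pvalb, lower on ibuprofen by a difference of -0.11 ± 0.05 (SE), against 1.74% of all genes in either direction and 0.466% lower, with 0% past the adjusted threshold. That count of 1 ran from 0 to 3 when 1 array was left out, with 3 without replicate 1 of the APP-PS1 mice on control chow (against 3.47% of all genes). It was 0 without any 1 of several arrays, replicate 3 of the wild-type mice on control chow among them (against 1.65% of all genes). Without the 3 arrays that stand apart it was 3 (Cck, Gabrb1 and Pvalb, against 3.03% of all genes).

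The median difference of the 28 genes for genotype was 0.01 on control and -0.11 on ibuprofen chow, where the medians of all genes were 0.02 and -0.05. For ibuprofen it was -0.04 in APP-PS1 and 0.05 in wild-type mice, beside -0.02 and 0.05 for all genes. On ibuprofen chow 23 of the 28 genes were below 0 in APP-PS1 against wild-type mice, and 37.8% of all genes were above 0. The median of -0.11 was -0.03 without the 3 arrays, with 20 of 28 below 0, -0.04 after quantile normalization and -0.04 after array centring, beside 0.00, 0.00 and 0.02 for all genes. Centring turned the median of the 28 genes to -0.02 both for genotype on control chow and for ibuprofen in wild-type mice, and quantile normalization turned it to -0.03 for the first and to 0.01 for ibuprofen in APP-PS1 mice, so these signs rest on the scaling. The plot of the differences of the 28 genes shows all 4 comparisons of 2 groups. The comparisons share groups, since each group enters one genotype and one ibuprofen comparison, so they are not separate evidence.

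**Figure D1:**
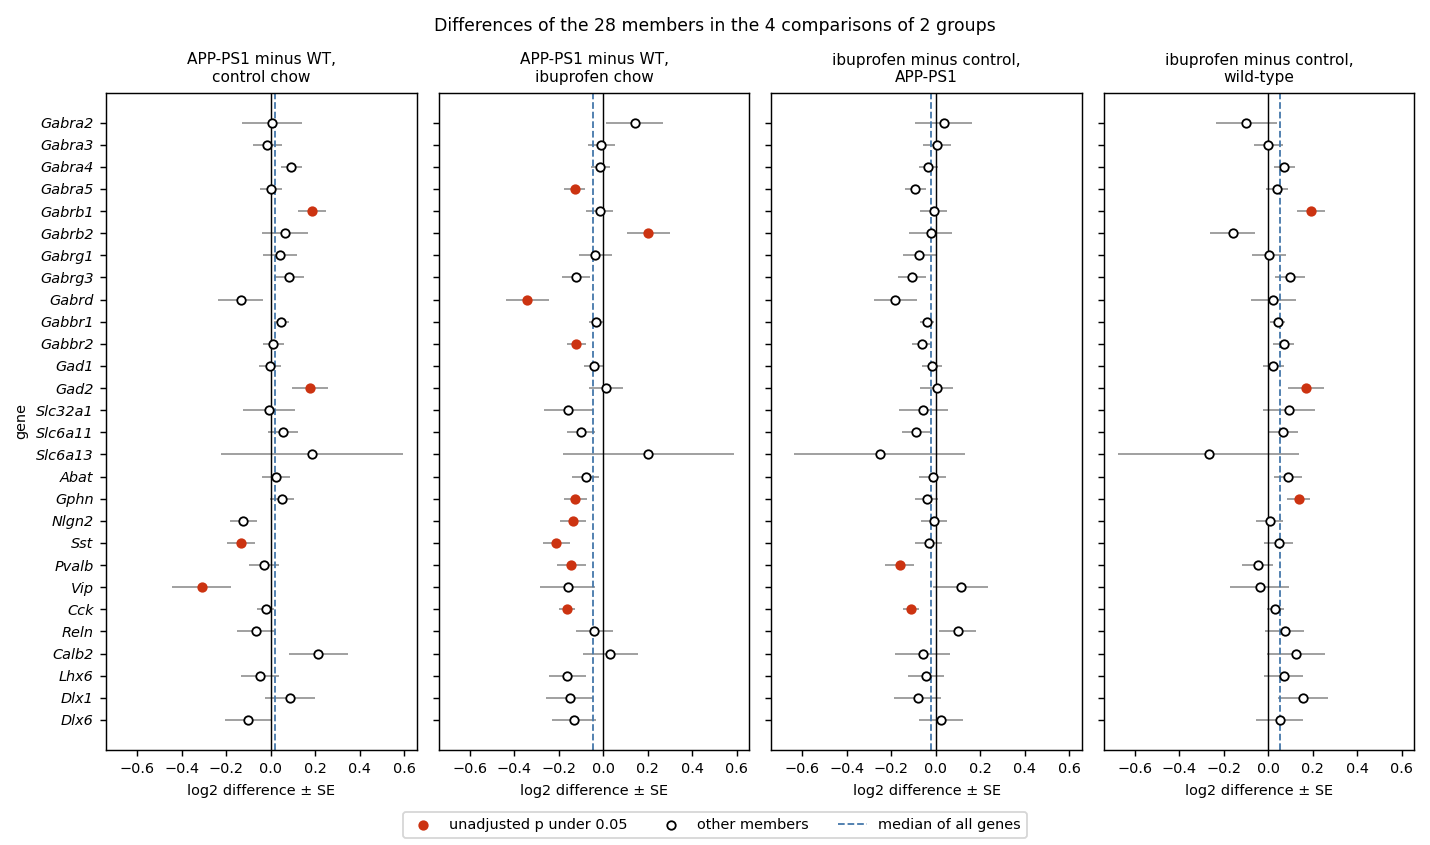
Log2 difference (point) and SE (bar) of each of the 28 genes in the 4 comparisons of 2 groups, with genes in rows, the median of all 19938 genes as a dashed line, and red points for an unadjusted limma p under 0.05. For genotype on ibuprofen chow 23 of 28 points lie left of 0, with Gabrd farthest at -0.34 and Gabrb2, the only red point right of 0, at 0.20.

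GABA-A receptors are pentamers, and the 9 subunits measured here fall partly into gene clusters. Gabrg1, Gabra2, Gabra4 and Gabrb1 lie together at chr5:70751047-72149572, and Gabrg3 and Gabra5 at chr7:56716463-57591016 (GRCm38.p6, RefSeq gene table). None of the 9 passed the adjusted threshold in any comparison, and their median difference for genotype was 0.04 on control and -0.02 on ibuprofen chow. The RNA comes from whole hippocampus, so fewer cells of a type and less RNA per cell cannot be told apart in any of these values.

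Gabrd encodes the delta subunit of extrasynaptic receptors, which in the hippocampus carry tonic inhibition, above all in dentate granule cells. It was 9.51, 9.50, 9.88 and 9.48 in the wild-type mice on control chow and 9.61, 9.55, 9.53, 9.46 and 9.90 in those on ibuprofen chow. In APP-PS1 mice it was 9.34, 9.37, 9.55, 9.46 and 9.55 on control chow and 9.16, 9.56, 9.07, 9.33 and 9.22 with ibuprofen. On ibuprofen chow 4 of the 5 APP-PS1 arrays were lower than any wild-type array, and replicate 2, at 9.56, lay among them. The genotype difference there was -0.34 ± 0.10 (SE, adjusted p = 0.107), which is -21.1% on the linear scale and the largest in size of the 28 genes in that comparison. Without the 3 arrays that stand apart it was -0.24 ± 0.10 (adjusted p = 0.420). With replicate 2 of the APP-PS1 mice on that diet left out it was -0.41 (adjusted p = 0.0255), while the genes called over the whole array rose from 54 to 444. On control chow the difference was -0.14 ± 0.10 and the groups overlapped.

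The 14 markers of dentate granule cells moved with Gabrd. Their mean level was 9.77 to 9.85 in wild-type mice on control chow, 9.82 to 10.16 in wild-type mice on ibuprofen chow, 9.66 to 9.92 in APP-PS1 mice without ibuprofen and 9.29 to 9.83 in those with it. For genotype on ibuprofen chow 12 of the 14 were below 0, 4 of them past the adjusted threshold, with a median of -0.26. With their mean as a covariate in the fit the Gabrd difference was 0.02 ± 0.11 in place of -0.34, and none of the 28 genes had an unadjusted p under 0.05 for genotype on that diet (0 in place of 9, and 1.35% of all genes in place of 24.5%). The marker mean barely overlapped between the genotypes on that diet, so adding it widens the SE of the genotype difference. The fall in these counts therefore cannot tell the genotype from the markers. Not all of the differences shrank much with this covariate: Sst was at -0.19 ± 0.10 and Gphn at -0.11 ± 0.08, close to their values without it but with larger SE. Across the 19 arrays, after the group means were taken off, Gabrd and the marker mean correlated at r = 0.75 (permutation p = 0.00024, adjusted over 7 pairs 0.00084) and rho = 0.69 (permutation p = 0.00138, adjusted 0.00483). Without the 2 arrays farthest from the median of the marker mean r was 0.51 (permutation p = 0.0433). The plot of Gabrd against these markers shows the arrays of APP-PS1 mice on ibuprofen chow at its lower left, except replicate 2.

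**Figure D2:**
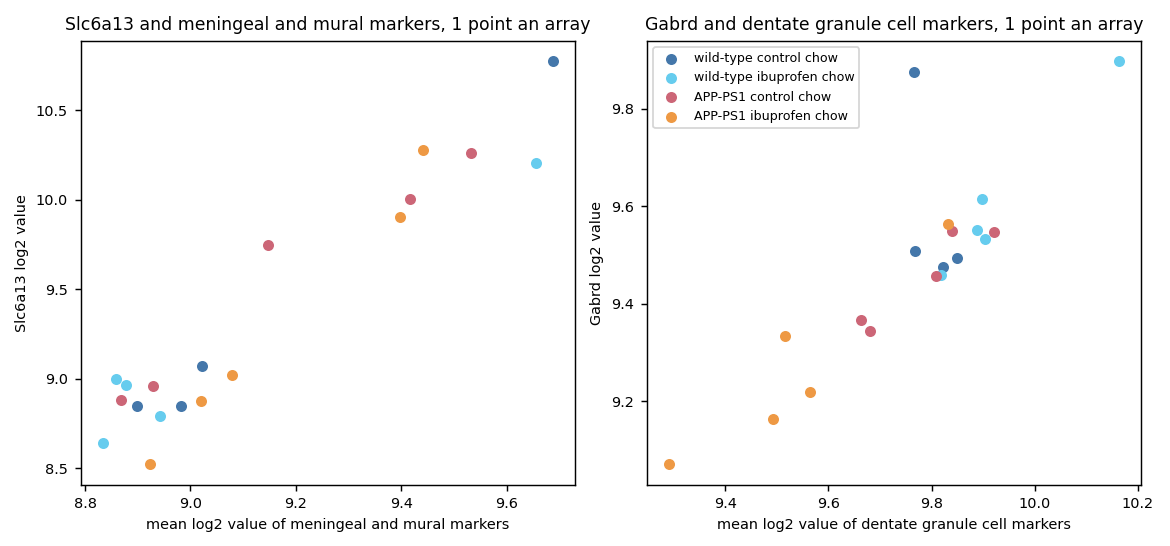
Log2 value of Slc6a13 against the mean log2 value of meningeal and mural markers (left) and of Gabrd against the mean of dentate granule cell markers (right), with 1 point for each of the 19 arrays, coloured by group. Slc6a13 reaches 10.78 in the array with the highest meningeal and mural mean, and the lowest Gabrd value, 9.07, belongs to the array with the lowest dentate mean, 9.29.

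Gabra5 encodes an alpha subunit that is abundant in hippocampal pyramidal cells and also mostly extrasynaptic. It was 12.999, 12.99, 12.90 and 12.97 in wild-type mice on control chow and 13.07, 13.05, 13.01, 12.9995 and 12.90 in wild-type mice on ibuprofen chow. The APP-PS1 mice had 12.89, 12.97, 13.04, 12.97 and 12.98 on control chow and 12.93, 12.95, 12.67, 12.92 and 12.92 with ibuprofen. In the last group 1 array, replicate 3 at 12.67, lay below all others, and the other 4 lay between wild-type ibuprofen chow replicate 5 and the rest of that group. The genotype difference on ibuprofen chow was -0.13 ± 0.05 (SE, adjusted p = 0.146), and with the 3 arrays left out it was -0.14 ± 0.05. On control chow it was 0.00 ± 0.05.

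Gabrb1, a beta subunit gene of the chromosome 5 cluster, showed its widest differences around the wild-type mice on control chow. It was 12.19, 12.05, 11.81 and 12.16 in that group and 12.28, 12.19, 12.26, 12.22 and 12.28 in wild-type mice on ibuprofen chow. Its values in APP-PS1 mice were 12.40, 12.23, 12.25, 12.11 and 12.21 on control chow and 12.24, 12.12, 12.20, 12.25 and 12.34 with ibuprofen. Replicate 3 of the wild-type mice on control chow was the lowest of all 19 arrays. The difference was 0.18 ± 0.06 (SE, adjusted p = 0.779) for genotype on control chow and 0.19 ± 0.06 (adjusted p = 0.432) for ibuprofen in wild-type mice. Both comparisons share the wild-type mice on control chow, and without replicate 3 of that group they were 0.10 (adjusted p = 0.9995) and 0.11 (adjusted p = 0.589).

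Gabrb2, another beta subunit gene, stood higher in APP-PS1 than in wild-type mice on ibuprofen chow by 0.20 ± 0.10 (SE, adjusted p = 0.204). Its values in the wild-type mice on that diet were 12.04, 12.45, 12.44, 12.34 and 11.74, while the APP-PS1 mice on it had 12.27 to 12.48. The low replicates 1 and 5 are among the 3 arrays that stand apart, and without these the difference was -0.01 ± 0.05, so its direction rests on them. The 3 probe sets of the gene parted in replicate 5. The probe set used read 11.74 there and another read 11.37, while the third read 12.44, the highest value of that probe set in any array.

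**Figure D3:**
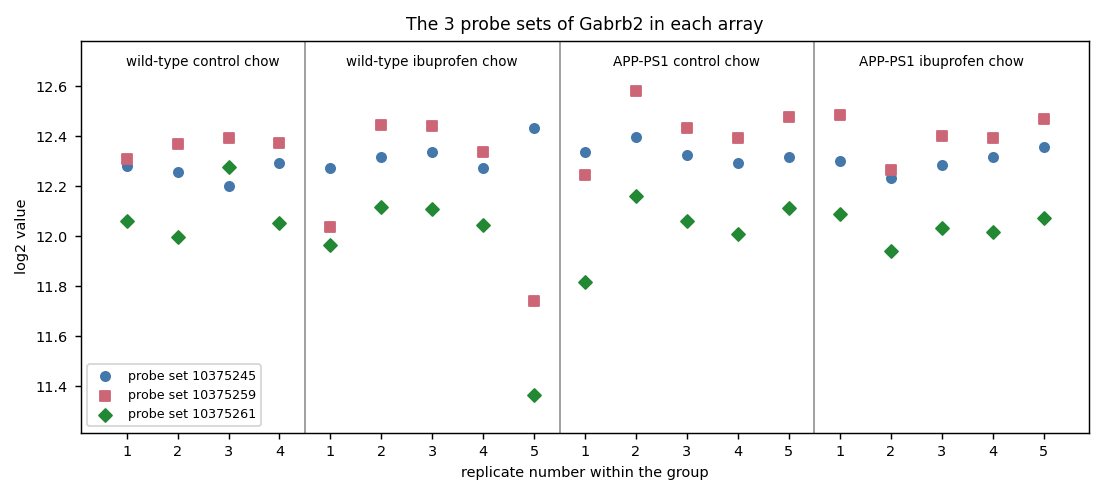
Log2 value of the 3 probe sets of Gabrb2 (vertical axis) in each of the 19 arrays (horizontal axis, by group and replicate), with 1 symbol per probe set. In wild-type ibuprofen chow replicate 5 the used probe set, 10375259, is at 11.74 and 10375261 at 11.37, below their values in every other array, while 10375245 is at 12.44.

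None of the other GABA-A subunit genes passed an unadjusted p of 0.05 in a comparison of 2 groups over all arrays, and Gabrg3 did so in the interaction. Gabra2, an alpha subunit enriched at synapses on the axon initial segment of pyramidal cells, ranged from 11.60 to 12.37 over the arrays, and its genotype difference on ibuprofen chow was 0.14 ± 0.13 (SE) and 0.00 ± 0.13 without the 3 arrays. Gabra3, on the X chromosome, ranged from 11.64 to 11.98 with differences between -0.01 and 0.00 in the 4 comparisons of 2 groups. Gabra4, which often pairs with the delta subunit, had a genotype difference of 0.09 ± 0.05 on control chow and -0.01 ± 0.04 on ibuprofen chow. Gabrg1 and Gabrg3 encode gamma subunits, and for genotype on ibuprofen chow they gave -0.04 ± 0.07 and -0.12 ± 0.06, or -0.08 ± 0.08 and -0.08 ± 0.06 without the 3 arrays. Gabrg3 had 0.08 ± 0.07 on control chow, the opposite sign, and its interaction was the -0.20 given above.

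Of the obligate partners of the GABA-B receptor, Gabbr1 binds the transmitter and Gabbr2 couples to the G protein. Gabbr2 was 12.75, 12.76, 12.88 and 12.80 in wild-type mice on control chow and 12.81, 12.83, 12.85, 12.82 and 13.02 in wild-type mice on ibuprofen chow. Among APP-PS1 mice it read 12.95, 12.81, 12.79, 12.70 and 12.80 on control chow and 12.70, 12.82, 12.74, 12.75 and 12.71 with ibuprofen. On ibuprofen chow 4 of 5 APP-PS1 arrays lay below all wild-type arrays, and the highest, 13.02, was wild-type replicate 5. The genotype difference on that diet was -0.12 ± 0.04 (SE, adjusted p = 0.150), and -0.09 ± 0.04 without the 3 arrays. Gabbr1 had the narrowest range of the 28 genes, from 12.85 to 13.01, and its differences lay between -0.04 and 0.05 in the 4 comparisons of 2 groups.

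Gad1 and Gad2 encode the enzymes that make GABA. Gad1 was 11.86, 11.87, 11.87 and 11.85 in wild-type mice on control chow and 11.86, 11.81, 11.94, 11.83 and 11.99 in wild-type mice on ibuprofen chow. In APP-PS1 mice it was 11.99, 11.84, 11.88, 11.76 and 11.83 on control chow and 11.76, 11.85, 11.92, 11.87 and 11.80 with ibuprofen. The 4 groups overlapped throughout. The genotype difference of Gad1 was 0.00 ± 0.05 (SE) on control chow and -0.04 ± 0.05 on ibuprofen chow, and the ibuprofen difference was -0.02 ± 0.05 in APP-PS1 and 0.02 ± 0.05 in wild-type mice. These values do not show that Gad1 was equal in the groups, since a difference well beyond its SE could also go undetected with this number of arrays.

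Gad2 was 11.22, 11.26, 10.94 and 11.24 in wild-type mice on control chow and 11.24, 11.34, 11.25, 11.27 and 11.57 in wild-type mice on ibuprofen chow. The APP-PS1 mice had 11.56, 11.37, 11.35, 11.18 and 11.24 on control chow and 11.27, 11.34, 11.48, 11.34 and 11.29 with ibuprofen. As for Gabrb1, replicate 3 of the wild-type mice on control chow was the lowest of all arrays. The difference was 0.18 ± 0.08 (SE, adjusted p = 0.828) for genotype on control chow and 0.17 ± 0.08 (adjusted p = 0.432) for ibuprofen in wild-type mice. Without that array they were 0.10 and 0.09. The count of the 28 genes at an unadjusted p under 0.05 then went from 4 to 0 for genotype on control chow and from 3 to 1 for ibuprofen in wild-type mice. The share of all genes also fell, from 5.87% to 2.01% in the first comparison and from 11.0% to 6.23% in the second.

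Slc32a1, the vesicular transporter that marks every GABA-releasing terminal, split the arrays in a way the groups do not. It was 9.37, 9.41, 9.73 and 9.40 in wild-type mice on control chow and 9.84, 9.36, 9.43, 9.38 and 9.86 in wild-type mice on ibuprofen chow. Its values in APP-PS1 mice were 9.81, 9.40, 9.49, 9.31 and 9.34 on control chow and 9.36, 9.55, 9.49, 9.39 and 9.29 with ibuprofen. The highest 4 values, 9.73 to 9.86, belong to wild-type control chow replicate 3 and to the 3 arrays that stand apart, and the other 15 arrays lay at 9.55 or below. Its genotype difference was -0.01 ± 0.12 (SE) on control chow and -0.16 ± 0.11 on ibuprofen chow. With the 3 left out these were -0.09 ± 0.07 and 0.03 ± 0.08, so the direction on ibuprofen chow rests on them.

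Gad1 and Gad2 varied together between arrays of the same group, with r = 0.66 (permutation p = 0.00236, adjusted over 7 pairs 0.0042), rho = 0.54 (permutation p = 0.0206, adjusted 0.0288) and r = 0.72 (permutation p = 0.00106) without the 2 arrays farthest from the median of Gad2. Without the 3 arrays that stand apart, however, r was 0.33 (permutation p = 0.209). Gad1 and Slc32a1 correlated at r = 0.66 (permutation p = 0.0024, adjusted 0.0042) and rho = 0.66 (permutation p = 0.00289, adjusted 0.00674). With replicate 1 of the APP-PS1 mice on control chow and replicate 5 of the wild-type mice on ibuprofen chow left out, this r was 0.41 (permutation p = 0.0991), and without the 3 arrays that stand apart it was 0.51 (permutation p = 0.0431, adjusted 0.101).

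Slc6a13 and Slc6a11 are transporters that take GABA up, the first mainly in the meninges and the second in astrocytes. Slc6a13 had the widest range of the 28 genes, from 8.52 to 10.78, and the largest within-group SD, 0.726, beside a median of 0.110 for the 28 genes. It was 8.85, 10.78, 8.85 and 9.07 in wild-type mice on control chow and 9.00, 8.96, 8.64, 8.79 and 10.20 in wild-type mice on ibuprofen chow. Among APP-PS1 mice it read 8.88, 8.96, 9.75, 10.00 and 10.26 on control chow and 9.02, 8.87, 9.91, 10.28 and 8.52 with ibuprofen. High and low arrays occurred in every group, and its differences, from -0.27 to 0.20, were smaller than their SE of 0.38 to 0.41, while without the 3 arrays they lay between -0.59 and 0.52 with SE of 0.38 to 0.44. It followed the mean of 18 meningeal and mural markers, with r = 0.96 and rho = 0.93 over 19 arrays (each with permutation p = 1e-05, the smallest that these permutations can give, adjusted 7e-05). Without the 2 arrays farthest from the median of the marker mean, r was 0.95. That mean ran from 8.90 to 9.69 in wild-type mice on control chow, 8.83 to 9.66 in wild-type mice on ibuprofen chow, 8.87 to 9.53 in APP-PS1 mice without ibuprofen and 8.92 to 9.44 in those with it.

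Slc6a11 ranged from 11.86 to 12.33, and its genotype difference was 0.06 ± 0.07 (SE) on control chow and -0.10 ± 0.06 on ibuprofen chow. Its level did not follow the mean of 13 astrocyte markers beyond what permutation gives, with r = 0.19 (permutation p = 0.433) and rho = 0.10 (permutation p = 0.681), and r turned to -0.24 (permutation p = 0.364) without 2 arrays. Abat, the transaminase that breaks GABA down, ranged from 12.05 to 12.51, and its differences lay between -0.08 and 0.09 in the 4 comparisons of 2 groups.

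Gphn encodes gephyrin, the scaffold under GABA-A and glycine receptors, and Nlgn2 encodes neuroligin 2, the adhesion protein of inhibitory synapses. Nlgn2 was 11.30, 11.34, 11.59 and 11.38 in wild-type mice on control chow and 11.39, 11.37, 11.32, 11.37 and 11.58 in wild-type mice on ibuprofen chow. In APP-PS1 mice it was 11.32, 11.30, 11.27, 11.17 and 11.33 on control chow and 11.31, 11.37, 11.27, 11.19 and 11.20 with ibuprofen. On ibuprofen chow 4 of 5 APP-PS1 arrays were lower than any wild-type array, and on control chow 2 of 5 were. The genotype difference was -0.12 ± 0.06 (SE) on control chow and -0.14 ± 0.06 (adjusted p = 0.173) on ibuprofen chow, and averaged over diets it was -0.13 ± 0.04 (adjusted p = 0.436). Without the 3 arrays the value on ibuprofen chow was -0.08 ± 0.06 and the average -0.11 ± 0.04. Gphn differed in opposite directions, with 0.05 ± 0.05 on control chow and -0.12 ± 0.05 (adjusted p = 0.163) on ibuprofen chow. Its highest value, 11.62, was that of wild-type ibuprofen chow replicate 1, and without the 3 arrays its interaction of -0.18 was -0.08 ± 0.06.

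**Figure D4:**
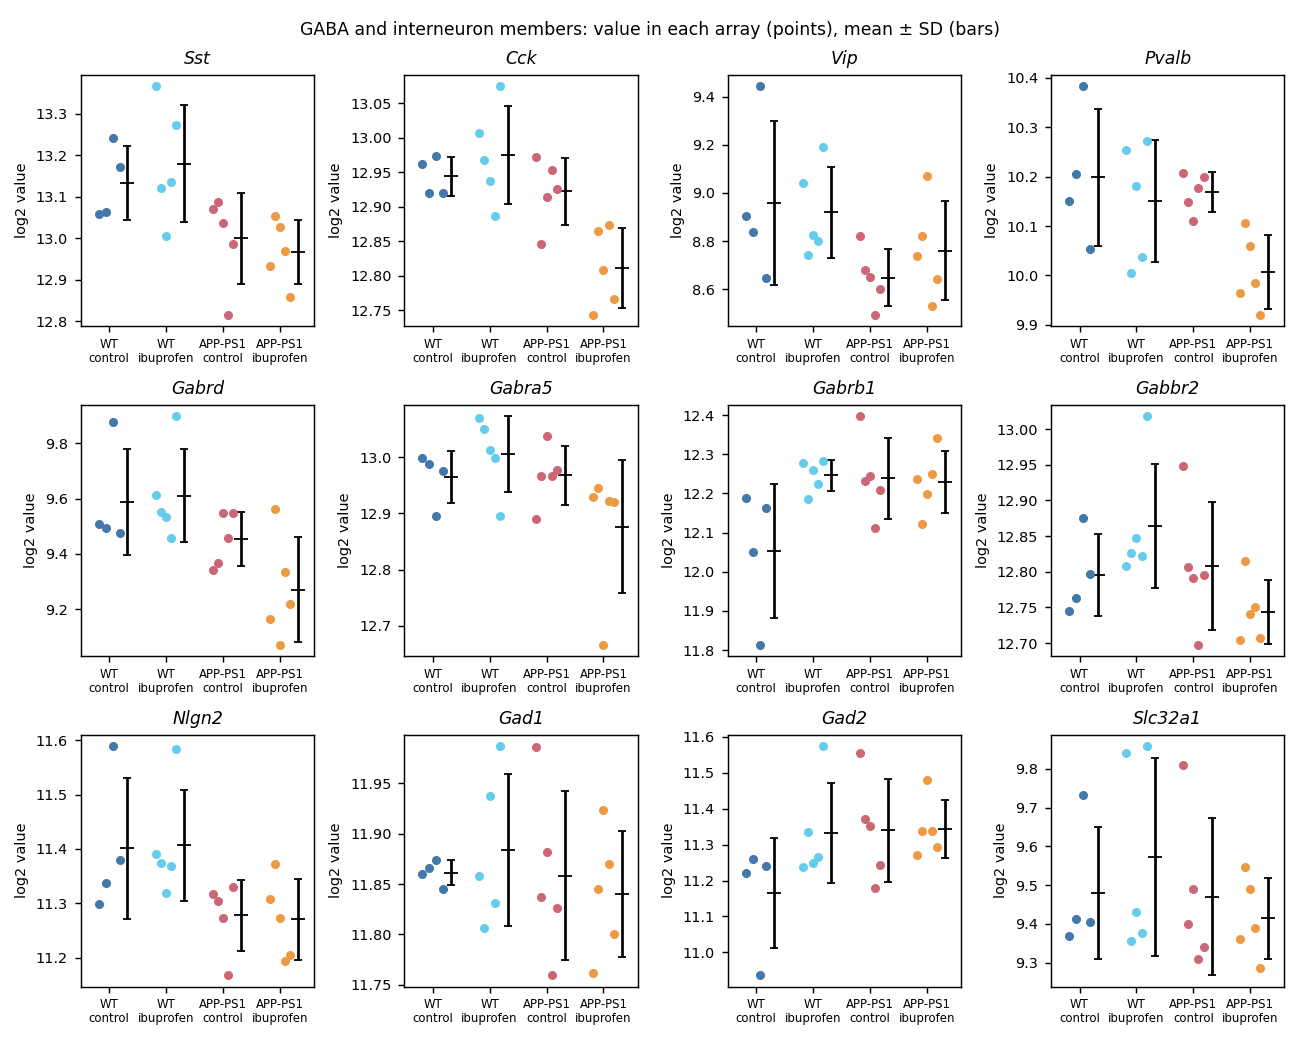
Log2 value of 12 of the genes in each array (points, by group), with the group mean and SD (black bars). Sst and Nlgn2 means are lower in APP-PS1 than in wild-type groups on both diets, and in the Cck panel every array of APP-PS1 mice on ibuprofen chow lies below every array of wild-type mice on that diet.

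The peptide Sst, somatostatin, marks dendrite-targeting interneurons. It was 13.06, 13.06, 13.24 and 13.17 in wild-type mice on control chow and 13.37, 13.12, 13.005, 13.14 and 13.27 in wild-type mice on ibuprofen chow. The APP-PS1 mice had 13.07, 13.09, 13.04, 12.82 and 12.99 on control chow and 12.93, 13.05, 13.03, 12.97 and 12.86 with ibuprofen. On each diet 3 of 5 APP-PS1 arrays were lower than any wild-type array, and the other 2 overlapped with them. The genotype difference was -0.13 ± 0.06 (SE, adjusted p = 0.848) on control chow and -0.21 ± 0.06 (adjusted p = 0.109) on ibuprofen chow. After removal of the 3 arrays these were -0.15 ± 0.06 and -0.12 ± 0.06 (adjusted p = 0.512 and 0.513), the second no longer at an unadjusted p under 0.05. Averaged over diets it was -0.17 ± 0.04 (adjusted p = 0.272), which was the smallest adjusted p of the 28 genes in that comparison. Under the alternatives that leave the groups whole or drop the 3 arrays, this average lay between -0.18 and -0.14, and without the 3 arrays it was -0.14 ± 0.04 (adjusted p = 0.268). The ibuprofen difference of Sst was -0.03 ± 0.06 in APP-PS1 and 0.05 ± 0.06 in wild-type mice.

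Cck, cholecystokinin, is the peptide of a class of basket cells and is also made by many pyramidal cells. It was 12.96, 12.92, 12.97 and 12.92 in wild-type mice on control chow and 13.01, 12.97, 12.94, 12.89 and 13.08 in wild-type mice on ibuprofen chow. Its values in APP-PS1 mice were 12.97, 12.85, 12.91, 12.95 and 12.93 on control chow and 12.74, 12.86, 12.81, 12.87 and 12.77 with ibuprofen. On ibuprofen chow the genotypes did not overlap, the only such case among the 28 genes in a genotype comparison, where the groups of 2.29% of all genes did not overlap. The genotype difference there was -0.16 ± 0.04 (SE, adjusted p = 0.0520), or -10.7% on the linear scale, and on control chow it was -0.02 ± 0.04. The ibuprofen difference was -0.11 ± 0.04 (adjusted p = 0.716) in APP-PS1 mice, in whom 1 control array, replicate 2, lay within the ibuprofen group, and 0.03 ± 0.04 in wild-type mice. Without the 3 arrays the genotype difference on ibuprofen chow was -0.12 ± 0.03 (adjusted p = 0.210). With the dentate marker mean as a covariate it was -0.09 ± 0.05.

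The peptide Vip marks interneurons that mostly inhibit other interneurons. It was 8.91, 8.84, 9.44 and 8.65 in wild-type mice on control chow and 9.04, 8.74, 8.82, 8.80 and 9.19 in wild-type mice on ibuprofen chow. Among APP-PS1 mice it read 8.82, 8.68, 8.65, 8.49 and 8.60 on control chow and 8.74, 8.82, 9.07, 8.53 and 8.64 with ibuprofen. The groups overlapped on both diets, and the highest value was that of wild-type control chow replicate 3. The genotype difference was -0.31 ± 0.13 (SE, adjusted p = 0.808) on control chow, -0.16 ± 0.12 on ibuprofen chow and -0.23 ± 0.09 (adjusted p = 0.567) averaged over both. Without that replicate the difference on control chow was -0.15 and the average -0.15. After removal of the 3 arrays the difference was -0.35 ± 0.13 on control chow and -0.03 ± 0.13 on ibuprofen chow.

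Sst, Vip and Cck are the 3 peptide genes with lower genotype averages at an unadjusted p under 0.05, and their promoters are shown because transcription of such peptide genes is known to respond to cyclic AMP. The RefSeq promoter table (GRCm38.p6) held 24 of the 28 genes. Each sequence below is the 250 bases before the table's start site, 5′ to 3′ on the gene's strand, with capitals for every match to TGACG or its reverse complement CGTCA, the core of the cyclic AMP response element. For Sst and Vip the longest RefSeq gene model begins further upstream than that start site. The windows are chr16:23890845-23891094 (minus strand) for Sst, chr10:5638968-5639217 (plus strand) for Vip and chr9:121495695-121495944 (minus strand) for Cck.
Sst: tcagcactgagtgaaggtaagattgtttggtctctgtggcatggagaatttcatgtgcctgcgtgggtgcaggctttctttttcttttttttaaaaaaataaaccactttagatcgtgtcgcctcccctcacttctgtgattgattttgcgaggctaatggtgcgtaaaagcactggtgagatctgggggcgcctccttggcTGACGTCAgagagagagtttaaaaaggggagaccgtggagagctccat
Vip: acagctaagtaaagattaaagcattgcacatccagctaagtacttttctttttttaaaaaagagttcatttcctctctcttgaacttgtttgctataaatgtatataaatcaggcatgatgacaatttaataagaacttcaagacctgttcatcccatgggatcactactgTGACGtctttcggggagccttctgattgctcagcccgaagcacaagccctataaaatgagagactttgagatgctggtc
Cck: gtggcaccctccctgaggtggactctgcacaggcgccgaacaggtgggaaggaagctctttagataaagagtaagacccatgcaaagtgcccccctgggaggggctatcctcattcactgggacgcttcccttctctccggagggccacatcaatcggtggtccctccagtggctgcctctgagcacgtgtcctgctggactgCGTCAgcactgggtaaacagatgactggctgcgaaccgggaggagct
Only the Sst window held the full element TGACGTCA, which reads the same on both strands and lies 48 bases before the start site. That element occurred in 1.55% of the 32851 windows of the table and in no other of the 24 windows here. The shorter core, on either strand and counted also within the full element, occurred in 17.8% of all windows and in those of Cck, Gad2, Sst and Vip, 4 of the 24. A match is a description of the letters and was not tested for binding, and Cck and Gad2, which both hold the core, differed in opposite directions for genotype averaged over diets, with -0.09 ± 0.03 and 0.09 ± 0.06 (SE).

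Pvalb, parvalbumin, is the calcium-binding protein of fast-spiking interneurons. It was 10.15, 10.21, 10.38 and 10.05 in wild-type mice on control chow and 10.25, 10.00, 10.18, 10.04 and 10.27 in wild-type mice on ibuprofen chow. In APP-PS1 mice it was 10.21, 10.15, 10.11, 10.18 and 10.20 on control chow and 9.97, 10.11, 10.06, 9.98 and 9.92 with ibuprofen. Within APP-PS1 mice the diets did not overlap, although the nearest arrays were 10.107 and 10.109, and no other of the 28 genes separated the diets in a genotype, where 2.77% of all genes did in APP-PS1 mice and 2.24% in wild-type mice. The ibuprofen difference was -0.16 ± 0.07 (SE, adjusted p = 0.716) in APP-PS1 and -0.05 ± 0.07 in wild-type mice, and their difference, the interaction, was -0.11 ± 0.09. The same values were, in the other 16 arrays, -0.15 ± 0.06, -0.12 ± 0.07 and -0.03 ± 0.09, so most of the contrast between the genotypes rests on them, and the genotype difference on ibuprofen chow went from -0.14 ± 0.07 to -0.07 ± 0.06. Sst and Pvalb correlated over the 19 arrays at r = 0.47 (permutation p = 0.0432, adjusted over 7 pairs 0.0504) and rho = 0.56 (permutation p = 0.0146, adjusted 0.0256), and at r = 0.38 (permutation p = 0.128) without the 2 arrays farthest from the median of Pvalb.

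Reln encodes reelin, secreted in the adult hippocampus mainly by interneurons near the molecular layers, and Calb2 encodes calretinin. Reln ranged from 10.15 to 10.74 and its genotype differences were -0.07 ± 0.09 (SE) and -0.04 ± 0.08 on control and ibuprofen chow, or -0.13 ± 0.06 and 0.06 ± 0.06 without the 3 arrays. Its ibuprofen difference in APP-PS1 mice was 0.10 ± 0.08, or 0.16 ± 0.05 without them (adjusted p = 0.460). Calb2 ranged from 10.39 to 11.17, and its genotype difference of 0.21 ± 0.13 on control chow was within the spread of its arrays, since APP-PS1 replicate 5 was the lowest array of all. Of the transcription factors, Lhx6 acts in interneurons from the medial ganglionic eminence, and Dlx1 and Dlx6 act early in the interneuron lineage. Their genotype differences on ibuprofen chow were -0.16 ± 0.08, -0.15 ± 0.11 and -0.13 ± 0.10. With the 3 arrays left out they were -0.05 ± 0.06, 0.03 ± 0.07 and 0.08 ± 0.06, so the direction of Dlx1 and Dlx6 rests on these arrays. The largest values of Lhx6 and Dlx1, 9.49 and 10.28, both belong to wild-type ibuprofen chow replicate 5, and that of Dlx6, 8.60, to replicate 1 of the same group.

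Many of the 28 genes moved together between arrays of the same group. In wild-type ibuprofen chow replicate 5, 23 of 28 lay above their group mean, as did 71.0% of all genes, and in APP-PS1 control chow replicate 1, 20 of 28 did, as did 69.7% of all genes. In wild-type ibuprofen chow replicate 4 only 2 of 28 lay above, beside 36.9% of all genes. APP-PS1 ibuprofen chow replicates 2 and 5 had 22 and 6 of the 28 above, while 52.9% and 52.6% of all genes were. The plot of deviations by array shows Slc32a1, Dlx1, Lhx6 and Reln high in wild-type ibuprofen chow replicate 5 and in APP-PS1 control chow replicate 1. Gabra2 and Gabrb2 were low in those arrays. The spread of the 28 genes was no wider than usual, with a median within-group SD of 0.110 beside 0.123 for all genes.

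**Figure D5:**
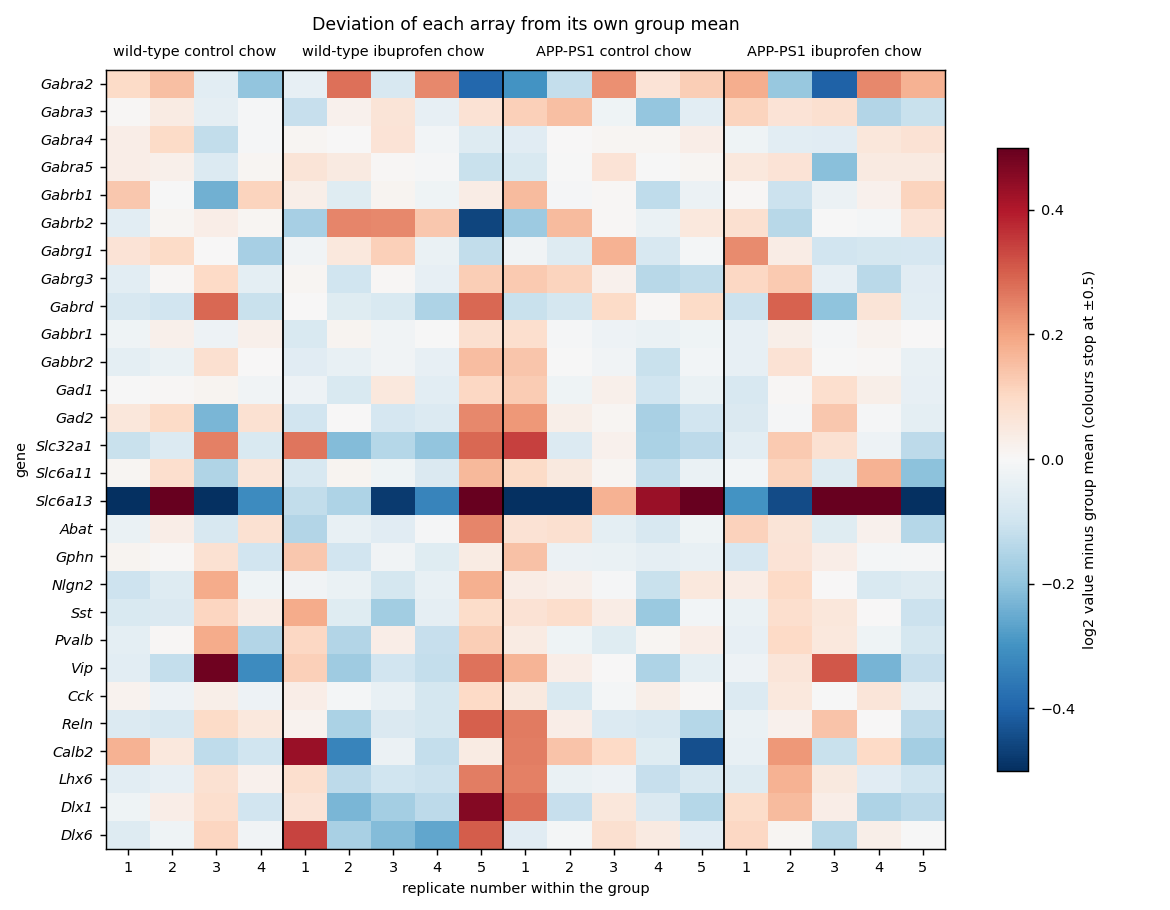
Deviation of each array (columns, by group and replicate) from its own group mean for each of the 28 genes (rows), on a log2 colour scale that stops at 0.5 in size, with red above and blue below the mean. Wild-type ibuprofen chow replicate 5 is red in 23 of 28 rows and replicate 4 of that group blue in 26.

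Gad1 was also set against the mean of 15 measured markers of the striatum, a region rich in GABA neurons. They correlated at r = 0.48 (permutation p = 0.0354, adjusted over 7 pairs 0.0496) and rho = 0.37 (permutation p = 0.118, adjusted 0.137), and r was 0.34 (permutation p = 0.188) without wild-type replicate 3 on control chow and wild-type replicate 5 on ibuprofen chow, so it rests on them. The striatal mean ran from 8.85 to 9.04 in wild-type mice on control chow, 8.82 to 9.14 in wild-type mice on ibuprofen chow, 8.83 to 8.94 in APP-PS1 mice without ibuprofen and 8.86 to 9.01 in those with it. With this mean as a covariate, the genotype differences on ibuprofen chow were -0.16 (adjusted p = 0.0163) for Cck, -0.32 (adjusted p = 0.0444) for Gabrd and -0.20 (adjusted p = 0.0376) for Sst, close in size to those without it. The calls over all genes in that comparison also rose with the covariate, from 54 to 410.

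Among markers of other cells, the adjusted test for genotype on ibuprofen chow called 4 of 14 dentate and 1 of 12 thalamic and habenular markers lower. Of all genes 0.271% passed there. No marker of the other lists was called in any comparison of 2 groups, which does not show that those markers were unchanged. For genotype on ibuprofen chow the median difference was 0.66 over 15 choroid plexus markers, all above 0, and 0.09 over 18 meningeal and mural markers. It was -0.07 over 13 astrocyte, -0.03 over 11 oligodendrocyte, -0.06 over 12 thalamic and habenular, -0.04 over 16 pyramidal and general neuronal, 0.02 over 9 microglial and 0.03 over 15 striatal markers. On control chow the choroid plexus median was 0.52 and the oligodendrocyte median 0.19, with 15 of 15 and 9 of 11 above 0, and the others lay between -0.04 and 0.08. The choroid plexus mean ranged over 7.76 to 9.38 and 7.70 to 10.30 in the wild-type groups and over 7.90 to 10.35 and 8.07 to 10.08 in the APP-PS1 groups (control chow first in each). The part of these markers in the differences of the 28 genes was not tested beyond the covariates named here and a choroid plexus covariate, with which none of the 28 genes passed the adjusted threshold either.

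Of 48 other genes of GABA signalling 41 were measured, and of 56 other interneuron genes 52. In the first list 1 of 41 passed the adjusted threshold in any of the 4 comparisons of 2 groups. This was Plcl1, a protein that binds GABA-A receptors and their trafficking partners, lower in APP-PS1 than in wild-type mice on ibuprofen chow by a difference of -0.32 ± 0.07 (SE, adjusted p = 0.0390). Its ibuprofen difference in wild-type mice, which shares a group with that comparison, was 0.32 ± 0.07 (adjusted p = 0.432). Shisa7, a GABA-A receptor auxiliary protein, followed with -0.28 ± 0.06 (adjusted p = 0.0501). In that comparison 26 of 41 were below 0 with a median of -0.03, beside -0.05 for all genes, and 0.271% of all genes passed the adjusted threshold.

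In the second list 2 of 52 passed, both for genotype on ibuprofen chow, where 0.271% of all genes passed. Penk, the enkephalin precursor of some interneurons and of striatal neurons, was higher in APP-PS1 by 0.78 ± 0.13 (SE, adjusted p = 0.0128). Prox1, a factor of granule cells and of interneurons from the caudal eminence, was lower with -0.46 ± 0.08 (adjusted p = 0.0128), and it is also 1 of the 14 dentate markers above. In that comparison 37 of 52 were below 0 with a median of -0.09, beside a median of -0.05 for all genes, of which 37.8% were above 0. Elsewhere no gene of either list passed. For genotype on control chow the smallest p-values were those of Gabarapl2 (0.17 ± 0.05), a relative of the receptor-associated protein, and Slc12a2 (0.31 ± 0.13), a chloride importer, in the first list, and of Cox6a2 (-0.24 ± 0.07) and Ndnf (0.23 ± 0.11) in the second. For ibuprofen in APP-PS1 mice they were those of Magi1 (-0.19 ± 0.07) and Gabre (0.25 ± 0.10), and of Penk (0.75 ± 0.13, adjusted p = 0.168) and Prox1 (-0.27 ± 0.08). For ibuprofen in wild-type mice Slitrk3 (0.14 ± 0.06), Htr3a (0.25 ± 0.09) and Kcnc2 (0.18 ± 0.07) were the others.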

How the data were processed

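Hippocampal RNA of 19 samples was measured on Affymetrix arrays. The deposited unit is log2 intensity per probe set, and the submitters' processing notes name RMA and Partek 6.5 as what the authors used, with settings not given in the sources used here. Of 35556 probe sets, an annotation of 2016 gave 21789 a single symbol, 1621 several and 12146 none here, and each gene took its brightest single-symbol probe set, leaving 19938 genes with no filter on dim genes. No further normalization was applied.

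A single limma model (R 4.3.3 with limma 3.58.1 and the data.table package, 1.17.8) with 4 group means, an intensity trend and 15 residual degrees of freedom gave 7 comparisons. Benjamini-Hochberg adjustment ran over all genes, with a threshold of 0.05. The fit was tested on simulated data. Correlations used deviations from group means and two-sided permutation tests (100000 permutations), adjusted over 7 pairs.

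Values in every array are given for genes with an unadjusted p under 0.01 in any comparison, for enough others to make 8, and for a fixed few, with Gabrb2 and Slc6a13 added after their values were seen. Of other lists, genes past the threshold or else the 2 smallest p-values are named. The members, lists, tests and alternatives were chosen with earlier results of these data known. Marker lists were striatal, choroid plexus, dentate, meningeal and mural, astrocyte, oligodendrocyte, thalamic and habenular, pyramidal and microglial. Alternatives were other normalizations, a filter on dim genes, averaged probe sets, array weights, other empirical Bayes settings, fewer arrays, marker covariates, the replicate number as a block and leaving out each array. The labels give no sex, litter or batch, so these were not tested. For arrays, their number limits the precision. Plots used matplotlib 3.10.9 under Python 3.11.15.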

Additional observations from a re-analysis of the deposited data

Results flagged for a closer look

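In 112 sets of 4 or 5 arrays (28 genes in 4 groups), 12 had an array whose distance to the nearest other array was a large part of the whole range of its group. For separate sets of normally spread values, chance alone is expected to give about 1 in 20 such groups. The 28 genes share the same arrays and many moved together, so 1 deviant array can be counted several times. The 12 sets are thus not separate cases, and whether they exceed chance was not tested.

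Wild-type control chow replicate 3 was the highest of its group for Gabrd (9.88, the others up to 9.51) and Slc32a1 (9.73, the others up to 9.41) and the lowest for Gad2 (10.94, the others from 11.22). APP-PS1 control chow replicate 1 was the highest for Gabbr1 (13.01, the others up to 12.92), Gphn (11.55, the others up to 11.37) and Lhx6 (9.37, the others up to 9.09). Wild-type ibuprofen chow replicate 5 was the highest for Gabbr2 (13.02, the others up to 12.85), Slc6a13 (10.20, the others up to 9.00) and Nlgn2 (11.58, the others up to 11.39). Slc6a13 was also far above its group in wild-type control chow replicate 2 (10.78, the others up to 9.07). Gabra5 was low in APP-PS1 ibuprofen chow replicate 3 (12.67, the others from 12.92), and Gabrg1 was high in APP-PS1 control chow replicate 3 (10.18, the others up to 9.99).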

How the results depend on the processing

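The count of the 28 genes past the adjusted threshold stayed at 0 for genotype on control chow, ibuprofen in wild-type mice, the interaction and the ibuprofen average under every alternative run. For genotype on ibuprofen chow it was 1 without the 25% dimmest genes (Cck, fewer genes being tested) and 1 with robust empirical Bayes (Cck), 3 with the striatal marker covariate (Cck, Gabrd and Sst) and 4 with array weights (Cck, Gabra5, Gabrd and Sst). Array weights also gave 1 for ibuprofen in APP-PS1 mice (Cck) and 2 for the genotype average (Cck and Sst). Leaving out 1 array at a time gave 0 to 3 for genotype on ibuprofen chow (3 when wild-type ibuprofen chow replicate 4 was the array left out, 2 for replicate 2 of the APP-PS1 mice on that diet and 1 for replicate 1 of those on control chow) and 0 elsewhere. In these 3 settings the calls over all genes also rose, from 54 to 1490, 444 and 100. The causes were not tested. For genotype on ibuprofen chow, Gabrb2 turned to -0.0063 without the 3 arrays that stand apart and to -0.045 with the dentate covariate, and Gabrd to 0.022 with the dentate covariate. Over all genes the calls there, 54, ran from 2 with the dentate covariate to 1004 with array weights, and from 10 to 1490 when 1 array was left out. They were 128 without dim genes, 91 with robust empirical Bayes, 410 with the striatal covariate, 33 without the 3 arrays and 5 with only the groups compared. The 5 calls of the genotype average became 342 with array weights, 11 after quantile normalization, 8 after centring, 13 with the striatal covariate and 8 without the 3 arrays, and 3 to 52 when 1 array was left out. Array weights gave 8 calls in place of 2 for genotype on control chow, and 108, 2 and 174 in place of 0 for ibuprofen in APP-PS1, ibuprofen in wild-type mice and the interaction.

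Quantile normalization, array centring and the removal of the 3 arrays gave r = 0.38, 0.45 and 0.33 for Gad1 with Gad2, r = -0.15, -0.19 and -0.31 for Slc6a11 with astrocyte markers, and r = 0.32, 0.25 and 0.15 for Gad1 with striatal markers. Gad1 with Slc32a1 was at r = 0.12 after centring and 0.51 without the 3 arrays. Leaving out 1 array at a time, r ran from 0.54 to 0.81 for Gad1 with Gad2, 0.53 to 0.78 for Gad1 with Slc32a1, 0.38 to 0.58 for Sst with Pvalb, 0.65 to 0.93 for Gabrd with dentate markers, 0.95 to 0.97 for Slc6a13 with meningeal markers, -0.11 (without wild-type ibuprofen chow replicate 5) to 0.52 for Slc6a11 and 0.28 to 0.63 for Gad1 with striatal markers.

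With the replicate number as a block, 0 of the 28 genes passed in each comparison, r for Gad1 with striatal markers was 0.48 (adjusted p = 0.0511), and the calls over all genes for genotype on ibuprofen chow were 197. The labels do not say that a number pairs samples, and the data leave it undecided: of 27 same-numbered pairs of arrays 17 correlated above 0.1 in their deviations (median 0.13), beside 29 of 108 other pairs (median -0.05). Each array's correlations with the arrays of other groups were also averaged by replicate number. For 10 of 19 arrays the highest such mean was that of their own number.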
